A study of Mus musculus with 36 samples.

Results

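Late-opened regions are stretches of chromatin whose accessibility stayed near the fibroblast level at days 2 and 3 of cardiac reprogramming and was higher at days 14 and 21. They were chosen from the measured values. A region was eligible when its counts summed to at least 90 over 18 libraries, and the 5 regions with the highest sums were set aside, which left 184025 eligible regions. Counts were scaled to the eligible total of a library (CPM), and the level of a region was log2(CPM + 0.5), averaged over 3 libraries per group. A region was a member when the mean of days 2 and 3 lay within 0.5 of the fibroblast level and the mean of days 14 and 21 lay at least 1 above both. This rule found 606 members, 0.329% of the eligible regions. Every difference below is on this log2 scale unless a fitted fold change is named, and the added 0.5 CPM understates changes of low regions. The rule used the fibroblasts and days 2, 3, 14 and 21. Contrasts of days 14-21 with fibroblasts or with days 2-3 are therefore described, and nothing is read from their tests. The libraries of day 7 and the differences of day 3 from day 2 and of day 21 from day 14 were not used by the rule.

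In ATAC-seq an enzyme cuts open DNA and tags it for sequencing, so the reads in a region count how often it was accessible. Regions that open during a change of cell fate are often enhancers or promoters, where transcription factors can bind once nucleosomes give way. Gata4, Mef2c and Tbx5 (together GMT) are transcription factors of heart development, and Gata4 is known to bind DNA that is still packed in nucleosomes. Other regions can open later, through factors that the first ones induce.

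The cells came from explants of neonatal hearts of CD-1 mice of the alpha-MHC-GFP genotype, a reporter under a cardiac myosin promoter that all libraries carry. Cells positive for Thy1 and negative for GFP, largely fibroblasts, were infected with retroviruses. The control group (3 libraries) received dsRed, a red fluorescent protein, and no inhibitor, and was sorted for dsRed at day 7. Each of the other 5 groups (3 libraries each) received GMT and a pair of inhibitors, sb431542 against TGF-beta signals and xav939 against Wnt signals, and was sorted for GFP at day 2, 3, 7, 14 or 21. The sort on GFP keeps the cells in which the reporter is active, so the GMT groups hold selected cells. The factors, the inhibitors and the sort cannot be told apart in any comparison with the control, and at times other than day 7 neither can the days in culture. In bulk samples, a larger share of cells with an open region and more opening per cell cannot be told apart. Regions are given by their position in build mm9 as in the deposited table. The copy held covers chromosomes 1 and 10 to 16 and chromosome 17 up to 79.1 Mb, and other chromosomes were not analysed here. No annotation of that build was used here, so no gene is named and the labelled cell types were not checked against markers. Whether a region shares sequence with the promoter copy in the reporter was not tested.

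Counts over that part of the genome ran from 2.29 to 23.2 M per library, of which 1.46 to 14.1 M lay in eligible regions. A group of 3 libraries, called those that stood apart, touches the results below. The 1840 eligible regions with most counts took 10.7% of eligible counts in day 2 replicate 1 and 9.85% in day 3 replicate 1, against 14.8 to 20.2% in the other 16 libraries. Day 14 replicate 3, at 14.8%, differed more from the other day 14 libraries (chi-square per degree of freedom 3.18 and 2.99) than they did from each other (2.27). By that measure fibroblast replicate 3 (1.97 and 1.79, against 1.36) and day 7 replicate 3 (2.86 and 2.58, against 2.02) also differed more, but are not among the 3. Without fibroblast replicate 3 the rule chose 502 regions, 336 of them among the 606. The main counts of members and calls that day 2 replicate 1, day 3 replicate 1 and day 14 replicate 3 bear on are given with and without them.

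The members were low regions. Their median level in fibroblasts was 1.10 CPM, against 2.20 CPM over all eligible regions, and 273 of 606 (45.05%) were under 1 CPM there, against 15.2% of all. At days 14 and 21 their median was 3.37 CPM (range 1.19 to 93.4 CPM), and 67 members reached 10 CPM. In the 3 fibroblast libraries together the median member had 12 counts and the lowest had 1, so no member was without fibroblast counts. The rule asks for a low fibroblast level relative to days 14 and 21, which favours such regions.

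Relative to the mean fibroblast level, the median member stood at 0.23, 0.12 and -0.29 in the 3 fibroblast libraries, at -0.42, 0.41 and -0.08 at day 2, and at -0.04, 0.44 and 0.47 at day 3. It stood at 0.74, 0.96 and 0.82 at day 7. The values were 1.36, 1.25 and 1.53 at day 14 and 1.29, 1.45 and 1.16 at day 21. The day 7 libraries were above all 9 fibroblast, day 2 and day 3 libraries, and below all 6 libraries of days 14 and 21. The rule chose those 9 as low and those 6 as high, so a day 7 level between them can come with the choice. Over all eligible regions the same median lay between -0.24 and 0.15 in every library, with day 7 the lowest group (-0.11, -0.14 and -0.24). The lowest library of each of the fibroblast, day 2 and day 3 groups was also its shallowest. Day 2 replicate 1 (1.48 M eligible counts), day 3 replicate 1 (1.79 M) and fibroblast replicate 3 (1.46 M) had 0 counts at 216, 161 and 195 members, against 0 to 4 members in each library of days 7, 14 and 21, and the part of depth in these levels was not tested.

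**Figure D1:**
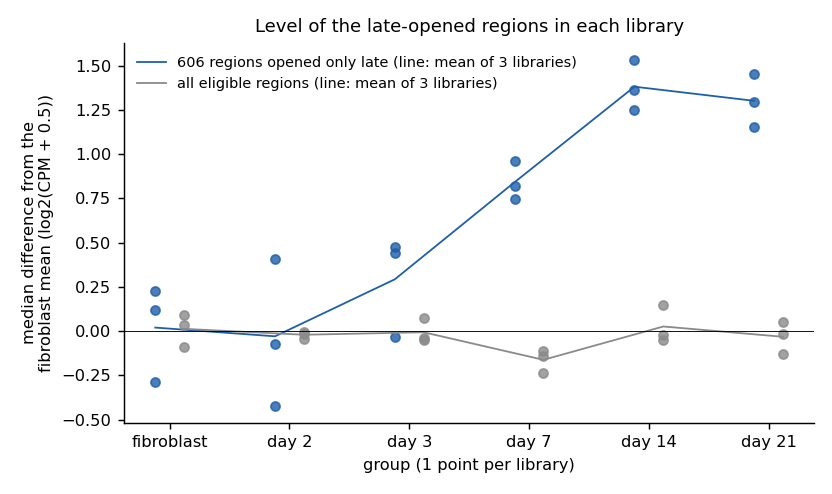
Median difference from the mean fibroblast level, in log2(CPM + 0.5), for the 606 late-opened regions (blue) and for all eligible regions (grey). The x axis gives the group, each point is 1 library and lines join the means of 3 libraries. The 606 regions lie at 0.74 to 0.96 in the day 7 libraries, between the early libraries (-0.42 to 0.47) and those of days 14 and 21 (1.16 to 1.53). The rule chose the early libraries as low and the late ones as high, which shapes this order.

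By the rule, members were flat in the mean of days 2 and 3. Single days were less uniform. The mean at day 2 was within 0.5 of fibroblasts for 506 members, the mean at day 3 for 446, and both for 366. At the late end, 452 members stood at least 1 above fibroblasts at day 14 and also at day 21. The median member rose by 1.17 from days 2-3 to days 14-21 (quartiles 1.09 and 1.34, largest 2.38), so many members lay close to the limit of 1. All 6 libraries of days 14 and 21 lay above all 9 libraries of fibroblasts and of days 2 and 3 in 177 members (29.2%), against 0.415% of all eligible regions, a share from which nothing is read because the rule chose on these libraries. Without the 3 libraries that stood apart it was 249 members (41.1%), against 1.48% of all regions. In the edgeR fit described next, 462 members passed the test against fibroblasts (12.8% of all regions) and 435 against days 2-3 (1.79% of all regions), and nothing is read from these counts for the same reason.

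To see how much of the rise recurred in other libraries, the limits of the rule were applied to 2 replicate numbers at a time. The regions so chosen were measured in the libraries of the number left out. Eligibility still used the counts summed over all 18 libraries, so the left-out libraries had a part in it. Leaving out replicate numbers 1, 2 and 3 chose 717, 1130 and 788 regions, of which 223, 382 and 287 were among the 606. In the libraries used for the choice, days 14-21 exceeded days 2-3 by a median of 1.18, 1.23 and 1.20. In the left-out libraries the medians were 0.53, 0.46 and 0.59, against -0.10, 0.02 and 0.04 over all eligible regions. The difference was above 0 in 75.5, 83.0 and 83.2% of the chosen regions (45.3, 51.8 and 52.7% of all), and at least 1 in 29.0, 16.99 and 27.3% (11.4, 2.87 and 5.05% of all). The whole rule was met in the left-out libraries by 10.0, 5.04 and 9.01% of the chosen regions, against 0.875, 0.533 and 0.913% of all. In the left-out libraries the rise was thus smaller than its chosen size, and what eligibility added to it was not tested. The chosen regions stood above the left-out fibroblast library by a median of 0.21, 0.22 and 0.49 at days 2-3, against 0.13, 0.07 and 0.10 in the libraries used for the choice. In regions with a summed count of 360 or more, the left-out medians of days 14-21 minus days 2-3 were 0.71, 0.66 and 0.70 (all such regions: -0.16, -0.03 and -0.04). With 180 to 359 counts they were 0.51, 0.51 and 0.70 (all: -0.17, 0.04 and 0.05). With 90 to 179 counts they were 0.44, 0.37 and 0.46 (all: -0.02, 0.06 and 0.09). The 3 choices share libraries pairwise, so their values are not independent. Of the 606 members, 52 were chosen in all 3 of these choices, 239 in 2, 258 in 1 and 57 in 0.

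**Figure D2:**
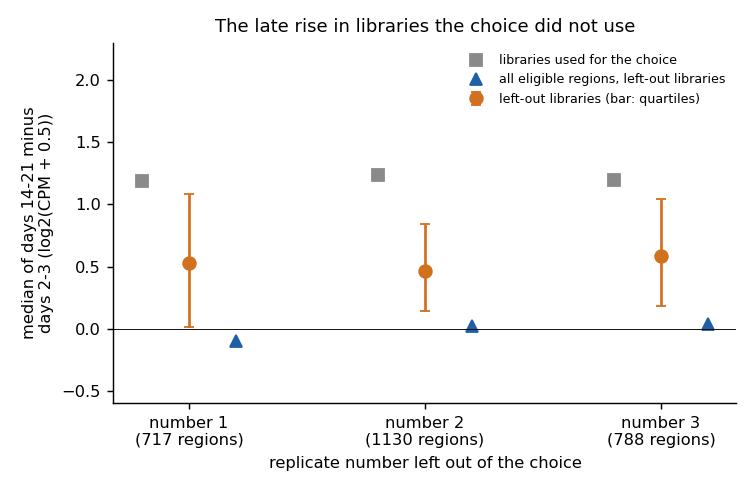
Median of days 14-21 minus days 2-3, in log2(CPM + 0.5), for regions chosen with 1 replicate number left out (x axis), among those eligible by the counts of all 18 libraries. Grey squares are the libraries used for the choice, orange circles the left-out libraries with bars for the quartiles over regions, and blue triangles all eligible regions in the left-out libraries; the orange values of 0.53, 0.46 and 0.59 lie below the grey and above the blue ones.

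Day 7 was the time the rule did not use, and there the members were already higher. The test was edgeR's quasi-likelihood test on the raw counts of all 184025 regions, with a mean per group and trimmed-mean (TMM) library scaling. A call needed an adjusted p under 0.05 by Benjamini-Hochberg over all regions. Against fibroblasts, 218 of the 606 members (36.0%) rose, against 13.3% of all regions, and 0 fell (8.85% of all regions). At an unadjusted p under 0.05 in edgeR 0 members were lower, against 27011 of all 184025 regions. DESeq2 called 0 lower (8.55% of all regions with an adjusted p). The fibroblast libraries were chosen as low, which favours such calls. The count of members that rose was 244 without the 3 libraries that stood apart (15.5% of all regions) and 121 with column sums as library sizes (8.85%). It was 117 without fibroblast replicate 1, where the share of all regions is not given here. DESeq2 called 135 of the 550 members to which it gave an adjusted p (11% of all regions with one).

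Against days 2-3, 49 members (8.09%) rose by day 7, against 0.181% of all regions, and 0 fell (0.0522% of all regions). At an unadjusted p under 0.05 in edgeR 0 members were lower, against 7539 of all 184025 regions. DESeq2 called 0 lower (0.25% of all regions with an adjusted p). The members made up 14.7% of the 334 regions that edgeR called higher. Their fitted log2 fold changes ran from 1.06 to 2.09, with a median of 1.35, and all 49 were also called higher than fibroblasts at day 7. In 41 of the 49 the 3 day 7 libraries lay above all 6 libraries of days 2 and 3. That separation was seen in 118 members (19.5%), against 1.73% of all regions, and in 155 (25.6%), against 3.60% of all, without the 3 libraries that stood apart. The libraries of days 2 and 3 were chosen as low by the rule, so part of each difference comes with the choice. The count rests on single libraries: leaving out day 7 replicate 3 gave 10, day 7 replicate 2 gave 15 and day 2 replicate 3 gave 26. The share of all regions in these sets is not given here. Without the 3 libraries that stood apart the count was 86, where the share of all regions was also higher, at 0.967%. It was 0 when regions with low counts were tested too (0.00029% of all regions) and 21 with column sums as library sizes (0.0533%). DESeq2 called 8 of the 13 members to which it gave an adjusted p (5.06% of all regions with one).

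Across members, the day 7 level exceeded that of days 2-3 by a median of 0.72 (quartiles 0.49 and 0.94), and by 0.63, 0.86 and 0.71 in the 3 day 7 libraries, while all eligible regions had a median of -0.14. Scaling bears on this offset: with TMM library sizes the median over all regions was 0.04 and that of the same 606 members 0.90. The median member had covered 60.5% of its rise from days 2-3 to days 14-21 by day 7 (quartiles 41.7 and 75.2%). The rule chose on both ends of that rise, so the choice shapes this share. That share was 59.1% in the 1913 other regions at least 1 higher at days 14-21 than at days 2-3, and 64.5% over all eligible regions, where the rise it is divided by is mostly near 0. Day 7 lay nearer to days 14-21 than to days 2-3 in 398 members (65.7%), against 60.5% of those 1913 regions, and the difference between the groups of regions was not tested. It lay at or above days 14-21 in 27 members and at or below days 2-3 in 11 (4.46 and 1.82%, against 6.12 and 2.51% of the 1913). A day 7 level at least 1 above fibroblasts was reached by 205 members, and 113 were less than 0.5 above. In the choices that left a replicate number out, the day 7 level exceeded days 2-3 in the left-out libraries by 0.09, 0.28 and 0.35, against -0.18, -0.10 and -0.14 over all regions. The median rises to days 14-21 in the same libraries were 0.53, 0.46 and 0.59. These day 7 values are smaller than the 0.72 of the full set, for which the early libraries were chosen as low.

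**Figure D3:**
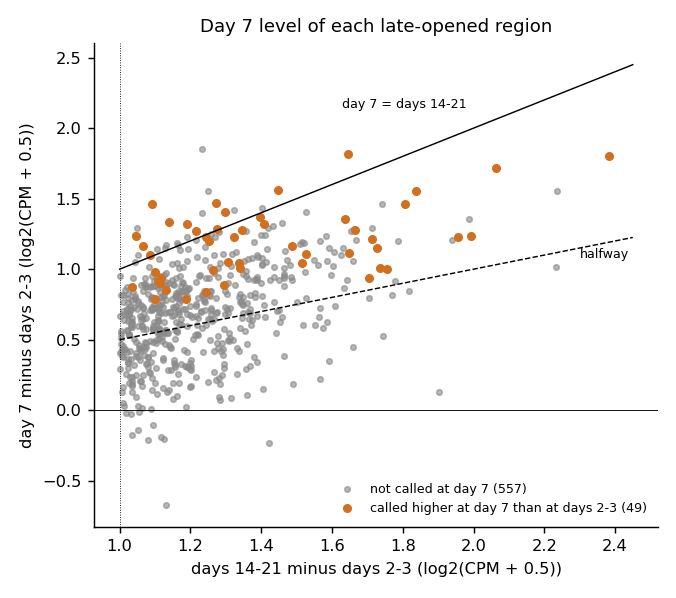
Day 7 minus days 2-3 (y axis) against days 14-21 minus days 2-3 (x axis), both in log2(CPM + 0.5), with 1 point for each of the 606 late-opened regions. The dotted line is the limit of 1 in the rule, the solid line marks equal levels at day 7 and days 14-21 and the dashed line the midpoint; 398 points lie above the midpoint, and the 49 called higher at day 7 than at days 2-3 are orange.

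From day 7 to days 14-21 the median member rose by a further 0.49 (quartiles 0.31 and 0.72), against 0.13 over all regions. No member passed the edgeR test for this step. Of 606, 0 were called higher, against 0% of all regions, and 0 lower (0.012% of all regions). At an unadjusted p under 0.05 in edgeR 130 members were higher and 1 lower, against 5413 and 7390 of all 184025 regions. DESeq2 called 0 of the 52 members to which it gave an adjusted p. All 6 libraries of days 14 and 21 lay above all 3 of day 7 in 75 members (12.4%), against 2.95% of all regions, and in 110 (18.2%), against 4.05% of all, without the libraries that stood apart. The late libraries were chosen as high. Without the 3 libraries that stood apart 5 members were called (0.0190% of all regions). Leaving out only day 2 replicate 1 or only day 3 replicate 1 gave 2, where the share of all regions is not given here. The name "opened only late" refers to the rule's flat days 2-3. The median member was already higher at day 7, against days 2-3 that the rule chose as low. In the main fit no region at all was called higher after day 7, so that test cannot tell members from other regions. The regions are called late-opened here for the rule alone.

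Neither of the other steps outside the rule gave a call. Between days 14 and 21 the median member changed by -0.05 (-0.03 over all regions), and 336 members (55.4%) were higher at day 14, against 53.7% of all. In edgeR 0 members were called in either direction, as were 0% of all regions, and DESeq2 called 0. At an unadjusted p under 0.05 in edgeR 12 members were higher and 16 lower at day 21, against 2795 and 3357 of all 184025 regions. From day 2 to day 3 the median member rose by 0.29, against 0.02 over all regions, and 435 of 606 (71.8%) had the higher mean at day 3, against 51.7% of all. The edgeR test called 0 members between these days (0% of all regions), and DESeq2 called 0. At an unadjusted p under 0.05 in edgeR 59 members were higher and 5 lower at day 3, against 3201 and 3429 of all 184025 regions. Day 2 replicate 1 had the lowest member median of all libraries, and its part in this step was not tested.

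The members described first have the largest rise from days 2-3 to days 14-21 among those with a late mean of at least 2 CPM and all late libraries above all fibroblast, day 2 and day 3 libraries. Of these 12, 7 met the rule without the 3 libraries that stood apart. The largest difference, 2.38, was at chr14:55559944-55560537. Its libraries held 0.693, 0.875 and 0 CPM in fibroblasts, 0, 1.10 and 0.357 CPM at day 2, and 0, 0.932 and 0.782 CPM at day 3. They held 3.42, 2.02 and 2.91 CPM at day 7, 3.57, 3.23 and 1.85 CPM at day 14, and 4.02, 9.41 and 7.43 CPM at day 21. Day 7 and day 14 overlapped here and lay above every earlier library, and day 21 was higher than both in each library. In edgeR day 7 exceeded days 2-3 by a fitted log2 fold change of 2.09 (SE 0.43, adjusted p 0.00880).

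A pair of further regions of the same stretch of chromosome 14 ranked 3 and 7 of the 12. At chr14:55575169-55576060 (difference 2.23) fibroblasts held 0.346, 1.75 and 0.683 CPM, day 2 held 0, 1.24 and 0.713 CPM and day 3 held 1.68, 1.30 and 1.14 CPM. Day 7 followed with 2.99, 1.84 and 2.15 CPM, day 14 with 3.45, 6.19 and 5.09 CPM and day 21 with 6.51, 7.13 and 8.73 CPM. This region climbed in steps, with every day 7 library above every earlier one and every day 14 library above day 7, although day 7 against days 2-3 was not called (adjusted p 0.155 in edgeR). At chr14:55568703-55569958 (difference 1.96) the levels were 1.01 ± 0.315 CPM in fibroblasts, 1.19 ± 0.423 and 1.28 ± 0.481 CPM at days 2 and 3, 3.51 ± 0.725 CPM at day 7, 4.64 ± 2.84 CPM at day 14 and 8.97 ± 2.32 CPM at day 21 (SD, n = 3 in each). All 3 regions met the rule without the libraries that stood apart.

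On chromosome 15, chr15:83602423-83604249 (difference 2.06) had most of its rise by day 7. Fibroblasts held 3.12, 3.50 and 1.37 CPM, day 2 held 1.35, 5.22 and 3.57 CPM and day 3 held 1.68, 6.53 and 3.48 CPM. At day 7 it held 9.83, 14.0 and 11.6 CPM, at day 14 17.7, 11.3 and 12.0 CPM and at day 21 17.2, 16.5 and 16.6 CPM. No early library reached day 7, and day 7 and day 14 overlapped. It had the smallest adjusted p of all members for day 7 against days 2-3 (edgeR log2 fold change 1.70, adjusted p 0.000286, SE 0.27). The low early values of replicate 1 enter here, and the region did not meet the rule without the libraries that stood apart, although day 7 remained above the other early libraries.

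The next smallest adjusted p was at chr11:81593239-81595300 (difference 1.81; edgeR log2 fold change 1.68 at day 7, adjusted p 0.000321, SE 0.27). Its libraries held 5.37, 5.25 and 2.73 CPM in fibroblasts, 1.35, 3.99 and 2.50 CPM at day 2 and 6.71, 7.83 and 4.69 CPM at day 3. They held 9.83, 18.4 and 8.89 CPM at day 7, 17.05, 14.0 and 14.8 CPM at day 14 and 20.5, 11.1 and 14.5 CPM at day 21. Day 7 replicate 2 was as high as the late libraries and the other day 7 libraries were not. Without day 7 replicate 2 the adjusted p was 0.0653. The third was chr12:28190573-28192409, at 4.45 ± 1.46 CPM in fibroblasts, 3.10 ± 2.07 and 6.09 ± 1.25 CPM at days 2 and 3, 11.1 ± 2.20 CPM at day 7 and 11.5 ± 5.89 and 9.87 ± 4.41 CPM at days 14 and 21 (SD, n = 3; edgeR log2 fold change 1.61 at day 7, adjusted p 0.00206, SE 0.29). Its level did not go on rising after day 7. With no filter on low counts these 3 adjusted p values were 0.0650, 0.101 and 0.219.

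A later course was seen at chr1:185889958-185891334 (difference 1.90). Fibroblasts held 1.91, 1.75 and 0 CPM, day 2 held 0, 1.37 and 2.14 CPM and day 3 held 0, 0.932 and 1.14 CPM. Day 7 held 0.854, 0.551 and 1.07 CPM, within the early range. Day 14 held 3.45, 3.23 and 7.87 CPM and day 21 held 3.06, 5.13 and 2.68 CPM, all above day 7. Among the 12 it had the smallest difference of day 7 from days 2-3 (0.13), and it met the rule without the libraries that stood apart.

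The other 6 of the 12 had day 7 levels between the early and the late ones. At chr1:72900519-72904478 (difference 1.99), the highest of the 12, levels were 9.20 ± 2.27 CPM in fibroblasts, 16.1 ± 9.23 and 11.8 ± 2.01 CPM at days 2 and 3, 33.3 ± 14.7 CPM at day 7, 43.4 ± 14.7 CPM at day 14 and 68.1 ± 13.0 CPM at day 21. Its day 2 libraries reached 25.6 CPM, above the lowest day 7 library at 18.5 CPM, and its level at days 2-3 lay 0.49 above fibroblasts, at the edge of the rule. At chr17:5572800-5573616 (difference 1.84) the day 7 level was 8.18 ± 3.05 CPM, against 2.47 ± 1.41 CPM in fibroblasts and 11.1 ± 3.35 CPM at day 21. At chr14:57468324-57469174 (difference 1.79) it was 3.06 ± 1.23 CPM, against 0.902 ± 1.14 and 4.64 ± 0.757 CPM (SD, n = 3 in each). None of these 3 met the rule without the libraries that stood apart.

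The remaining members of the 12 rest on few counts. At chr13:24725976-24726665 (difference 2.24) fibroblast replicate 3 held 1 count and the other fibroblast libraries 0, so no fold against fibroblasts is given. Its day 7 libraries held 1.92, 2.02 and 1.84 CPM and its day 21 libraries 4.79, 3.71 and 3.91 CPM. At chr13:12410295-12410699 (difference 1.99) day 2 held 0, 0.275 and 0 CPM, day 7 1.495, 2.02 and 1.53 CPM and day 21 1.53, 5.13 and 3.06 CPM. At chr11:92048025-92048734 (difference 1.82) day 14 held 1.34, 1.08 and 6.02 CPM, so its day 14 mean came largely from replicate 3. The last 2 met the rule without the libraries that stood apart.

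**Figure D4:**
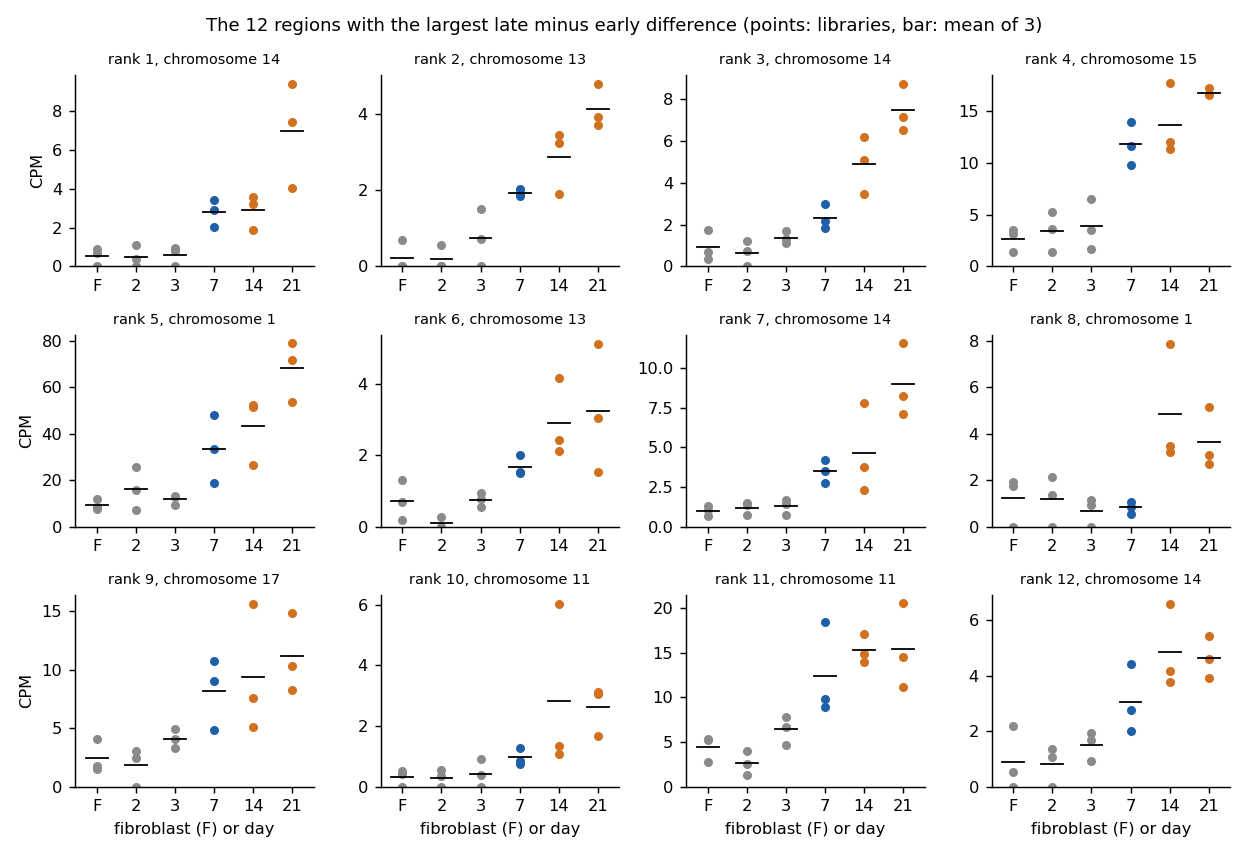
CPM in each library of the 12 late-opened regions with the largest late minus early difference, ranked by that difference. The x axis gives fibroblasts (F) and the day, points are libraries and bars are means of 3; rank 1 rises from 0.523 CPM in fibroblasts to 6.95 CPM at day 21, and rank 8 is the panel where day 7 (0.826 CPM) lies at the early level.

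In the 3 members with the highest late level, the libraries of days 2 and 3 differed widely among themselves. At chr17:15160461-15162316 fibroblasts held 43.0, 45.5 and 48.5 CPM, day 2 held 15.6, 91.1 and 63.5 CPM and day 3 held 6.71, 80.5 and 89.8 CPM. Day 7 held 102, 92.0 and 86.9 CPM, day 14 held 87.6, 95.3 and 65.3 CPM and day 21 held 99.4, 119 and 94.0 CPM. Replicates 2 and 3 of days 2 and 3 lay above every fibroblast library, and the replicate 1 libraries lay far below, so that the mean was flat. The order was the same at chr11:80113755-80116536, with 21.7, 58.4 and 46.4 CPM at day 2 and 15.7, 61.9 and 64.8 CPM at day 3 against 40.96 ± 3.17 CPM in fibroblasts and 88.4 ± 0.715 CPM at day 21. At chr1:135077526-135080070 day 2 held 10.8, 37.8 and 31.0 CPM and day 3 8.94, 44.0 and 35.8 CPM, against 18.1 ± 1.60 CPM in fibroblasts and 70.4 ± 6.62 CPM at day 21 (SD, n = 3). None of these highest 3 met the rule without the libraries that stood apart.

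Over all members, 267 of 606 (44.1%) met the rule without those 3 libraries, which chose 555 regions in all. The median of days 2-3 above fibroblasts went from 0.13 to 0.27 for the 606, that of day 7 above days 2-3 from 0.72 to 0.56, and that of days 14-21 above days 2-3 from 1.17 to 1.03. Of the 177 members whose late libraries lay above all earlier ones 100 met the rule without them, as did 29 of the 49 called at day 7.

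Most windows with members held 1. Of the windows of 100000 bases on a fixed grid, 501 held 1 member, 37 held 2, 2 held 3, 3 held 4, 1 held 5 and 1 held 8. Another member lay within 10000 bases of 41 members (6.77%) and within 100000 bases of 180 (29.7%). Per 1000 eligible regions there were 2.48 members on chromosome 12, the fewest, and 4.23 on chromosome 15, the most. Regions near a member leaned the same way: over 1020 other regions within 5000 bases of a member, the median of days 14-21 minus days 2-3 was 0.22 and 4.80% stood at 1 or more, against -0.00 and 0.941% over the 163747 regions more than 100000 bases from any member. Neighbouring regions in the same libraries are not independent, and the difference measured is one that the rule chose members on. Neighbours of other regions of like level were not compared, so nothing about the members is read from this lean.

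The window with most members was chr14:55500001-55600000, where 8 of 34 eligible regions were members, all between 55556085 and 55576060. Their summed level was 24.6, 26.2 and 19.8 CPM in fibroblasts, 18.9, 33.7 and 19.3 CPM at day 2 and 24.0, 27.0 and 28.9 CPM at day 3. It was 56.9, 54.4 and 46.1 CPM at day 7, 67.0, 103 and 51.4 CPM at day 14 and 87.5, 129 and 157 CPM at day 21. The day 7 libraries lay above every earlier library, and day 21 lay above day 7. All 8 met the rule without the libraries that stood apart, and 4 were called at day 7 against days 2-3. The 2 widest carried most of the signal: chr14:55556085-55559745 went from 11.9 ± 2.59 CPM in fibroblasts to 27.7 ± 3.74 CPM at day 7 and 62.1 ± 22.0 CPM at day 21, and chr14:55564386-55568629 from 7.89 ± 0.945 to 14.5 ± 1.48 and 31.8 ± 8.03 CPM (SD, n = 3). Between them, chr14:55562651-55562851 and chr14:55563977-55564245 still held 0.458 ± 0.359 and 0.490 ± 0.221 CPM at day 7, at their fibroblast levels of 0.465 ± 0.440 and 0.547 ± 0.125 CPM. They reached 1.90 ± 0.860 and 2.55 ± 0.390 CPM at day 21. Whether the day 7 change differed between neighbouring members was not tested.

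Among the other 26 regions of that window, chr14:55584482-55587987 held most of the counts at day 7. It went from 23.8 ± 4.16 CPM in fibroblasts to 208 ± 46.9 and 284 ± 93.0 CPM at days 2 and 3, 415 ± 32.2 CPM at day 7 and 378 ± 73.2 CPM at day 21, and was picked after its values were seen. The remaining 25 summed to 269 ± 4.63 CPM in fibroblasts, 255 ± 24.5 and 253 ± 53.3 CPM at days 2 and 3, 315 ± 17.2 CPM at day 7, 290 ± 36.1 CPM at day 14 and 314 ± 34.3 CPM at day 21 (SD, n = 3 in each). Their days 2 and 3 overlapped fibroblasts. Of the 26, 8 also stood at least 1 higher at days 14-21 than at days 2-3. These missed the rule because days 2-3 lay more than 0.5 above fibroblasts (3 regions) or more than 0.5 below (4), or because days 14-21 lay under 1 above fibroblasts (1). The late-opened regions of this window thus lay among 9 regions that stood more than 0.5 above fibroblasts at days 2-3 and others that stood below.

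The windows with 5, 4, 4 and 4 members were followed in the same way. In chr13:12400001-12500000 the summed level of 5 members was 20.3 ± 2.68 CPM in fibroblasts, 12.8 ± 4.23 and 20.9 ± 7.12 CPM at days 2 and 3, 32.9 ± 0.471 CPM at day 7 and 39.6 ± 11.8 and 51.9 ± 10.7 CPM at days 14 and 21. Most of it came from chr13:12431429-12433700, which went from 18.04 ± 3.33 to 42.2 ± 8.78 CPM at day 21. In the adjoining chr13:12300001-12400000 the sum of 4 members was 4.86 ± 2.63 CPM in fibroblasts, 5.77 ± 2.80 CPM at day 7 and 16.9 ± 6.24 CPM at day 21. Its day 7 libraries, at 4.17, 9.002 and 4.14 CPM, overlapped the fibroblast libraries at 2.25, 4.81 and 7.52 CPM. In chr1:72900001-73000000 the sum of 4 members was 10.9 ± 2.16 CPM in fibroblasts, 38.6 ± 15.2 CPM at day 7 and 77.6 ± 15.7 CPM at day 21, and in chr15:86400001-86500000 it was 11.7 ± 0.708, 20.3 ± 5.29 and 39.8 ± 11.7 CPM (SD, n = 3). Without the libraries that stood apart 3 of 5, 3 of 4, 2 of 4 and 3 of 4 of these members met the rule.

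**Figure D5:**
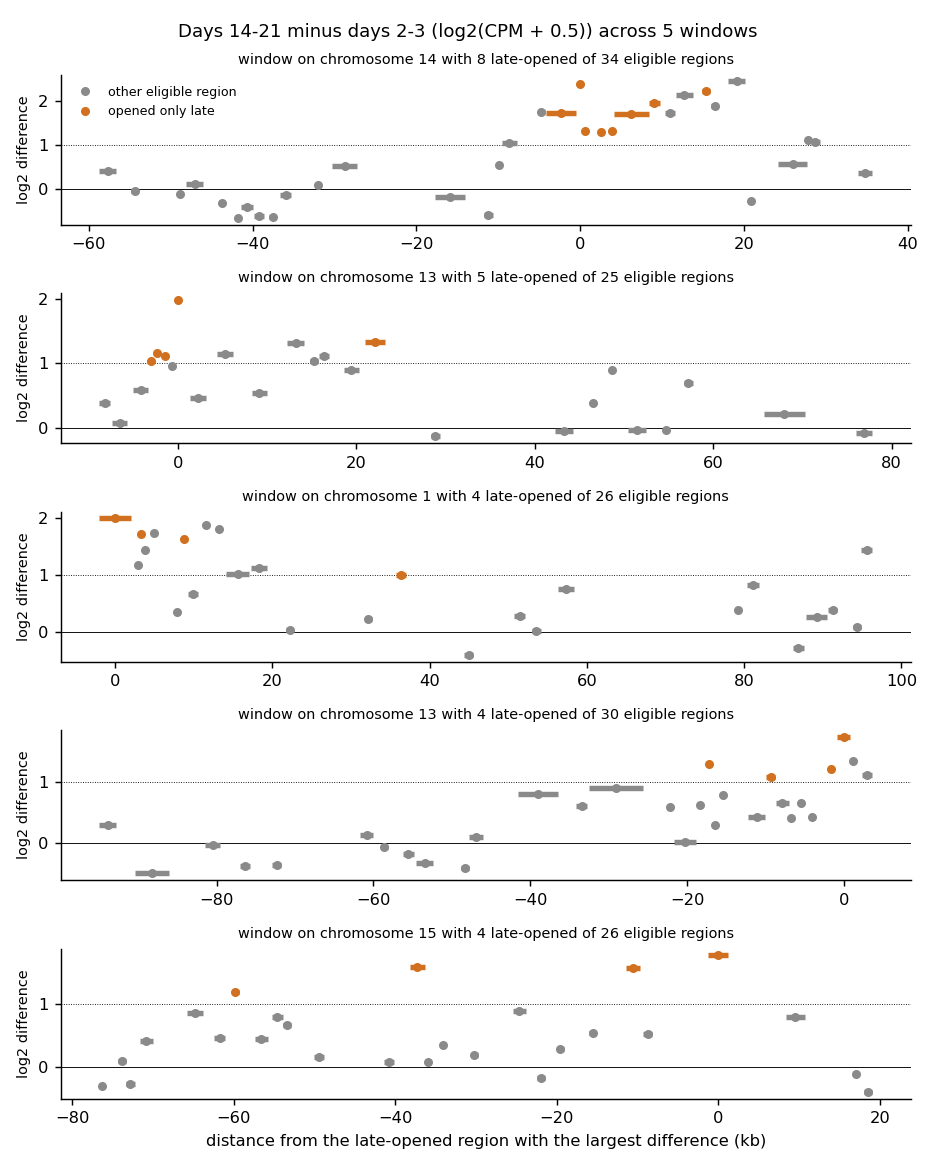
Days 14-21 minus days 2-3, in log2(CPM + 0.5), of every eligible region in the 5 windows with most late-opened regions (orange; others grey). The x axis is the distance in kb from the late-opened region with the largest difference, bars give the width of a region and the dotted line marks 1; in the top panel the 8 late-opened regions lie among 8 other regions at or above 1.

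The median width of the members was 1152.5 bases (quartiles 833 and 1642.5), against 1346 bases for all eligible regions and 1436 bases for the 11913 regions that stood at least 1 above fibroblasts at days 2-3 and at days 14-21, within 0.5 of each other. The 766 regions open at days 2-3 and back at the fibroblast level at days 14-21 had a median of 1159 bases. Of the members 15 (2.48%) were 3000 bases or wider, against 4.72% of all. The rule favours low regions, and the part of the level in these widths was not tested.

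Calls were made mostly in members with many counts. Of the members, 236 had a summed count of 90 to 179, 208 of 180 to 359 and 162 of 360 or more. The late libraries lay above all early and fibroblast libraries in 17.8, 26.4 and 49.4% of these, and 0, 3 and 46 were called at day 7 against days 2-3. Over all eligible regions of any depth these shares were 0.415 and 0.181%, and they were not counted by depth. The rule chose on the early and late libraries, so nothing about the members is read from these counts.

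Many members lay near a limit of the rule. For the rise above days 2-3, 176 members stood within 0.1 above the limit of 1 and 181 regions that met the other conditions within 0.1 below it. The nearest inside were chr11:77565545-77567036 and chr10:21380924-21383039, both at 1.0009, and the nearest outside chr14:26160974-26162167 and chr15:78825241-78826965, at 0.9996 and 0.9993. For the rise above fibroblasts 105 members stood within 0.1 inside and 97 regions within 0.1 outside, with chr12:83958199-83959667 at 1.0029 and chr13:34391260-34392039 at 0.9997 nearest to it. At the upper limit of 0.5 for days 2-3 above fibroblasts, 69 members lay within 0.1 inside and 53 regions within 0.1 outside, with chr10:33394549-33395463 at 0.4989 and chr12:118792437-118793699 at 0.5015 nearest to it. At the lower limit chr13:35710930-35711809 was at -0.474 and chr15:88967713-88968547 at -0.502. In all, 1001 regions missed only the rise above days 2-3, 374 only the rise above fibroblasts, and 324 only the upper and 10 only the lower limit of the early level.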

How the data were processed

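ATAC-seq was compared in 18 libraries, 3 in each of 6 groups taken from the labels; 18 further samples in the labels were not analysed here. The deposited table holds raw counts of reads per region, which the authors had not normalized. Bowtie2, Picard, MACS2 and edgeR were used and the build was mm9, per the submitters' processing notes; versions, settings and any adapter offset were not given in the sources used here. As held, the table has 1393120 complete lines and a last, incomplete one, which was left out. A width is the end minus the start.

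Eligible regions, levels and members followed the rule in the report, with CPM on column sums of the eligible regions. The members, lists and tests were chosen with earlier results of these data known. Differences were tested with edgeR 4.0.16 in R 4.3.3 (TMM, trended dispersion, glmQLFit with robust estimation, glmQLFTest, two-sided) on all 184025 regions, with Benjamini-Hochberg adjustment over all of them, 12 residual degrees of freedom and a common biological coefficient of variation of 23.9%. Alternatives were DESeq2 1.42.0, other scalings, filters and added CPM, a replicate block, and leaving out each library or the 3 that stood apart.

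Named regions were the 12 members with the largest late minus early difference whose late libraries exceeded all fibroblast, day 2 and day 3 libraries and averaged at least 2 CPM, the 3 with the highest late level, up to 3 per tested contrast and direction by smallest adjusted p, the 5 windows with most members, and the 2 regions nearest each limit on either side. Regions inside the windows were picked after their values were seen. Per the labels there were 3 biological replicates per condition, sequenced at either of 2 cores; which library went to which core is not stated, so a core effect was not tested. The closest pair of libraries, fibroblast replicates 1 and 2, still differed beyond counting error (chi-square 1.36 per degree of freedom, against 1.79 to 5.58 in other pairs), and all were counted separately. Whether they came from separate cultures is not shown by the counts, so p-values measure the spread between these samples. Counts per library ran from 2.29 to 23.2 M over the lines held and are not the full depth of a library. Planned gene lists, nearest starts and the motif search were not run, for want of an mm9 annotation and sequence, which were not used here.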

Additional observations from a re-analysis of the deposited data

How the results depend on the processing

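The number of late-opened regions, 606, became 227 with 1 CPM added before the logarithm (200 shared with the 606), 390 with a summed count of at least 180 (357 shared) and 332 with the counts of a group summed before the logarithm (202 shared), an alternative chosen after seeing the data. Leaving out each library gave 502 to 822 (336 to 606 shared), and the other settings stayed within 1.5 times of 606. In the settings that follow the calls are of the same 606 regions. Members called higher than fibroblasts at day 7, 218, became 135 in DESeq2 and 121 with column sums, and 117 to 238 when each library was left out. Those called higher than days 2-3 at day 7, 49, became 8 in DESeq2, 21 with column sums, 86 without the 3 libraries that stood apart and 0 with no filter on low counts, and 10 to 55 when each library was left out. Calls of days 14-21 over day 7, 0, became 5 without the libraries that stood apart and 0 to 2 when each library was left out. The shares of all regions in the sets that left out 1 library are not given here. Calls between days 14 and 21 and between days 2 and 3 were 0 under all 7 other settings and all 18 sets without a library. The median of day 7 above days 2-3, 0.72, was 0.88 with TMM and 0.86 with RLE scaling, and 0.66 to 0.80 when each library was left out, each with the regions chosen anew. In the same 606 regions it was 0.90 with TMM and 0.88 with RLE. The median rise in left-out libraries was 0.588 with replicate number 3 left out of the choice, 0.528 with number 1 and 0.465 with number 2.

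Replicate numbers are shared between groups. Deviations of same-numbered libraries from their group means correlated by 0.01, 0.01 and 0.0002 on average (range -0.127 to 0.282), and 3 of 18 libraries correlated best with their own number, so the numbers were not taken to pair the libraries. The highest correlation was between replicates 1 of days 2 and 3, which both stood apart. With a replicate block the calls were 209 for day 7 over fibroblasts, 53 for day 7 over days 2-3 and 1 for days 14-21 over day 7. The shares of all regions were 13.1, 0.177 and 0.00054%.

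Depth limits low levels: the shallowest library, fibroblast replicate 3, held 1.46 M counts in eligible regions, where 1 count was worth 0.683 CPM, more than the 0.5 CPM added before the logarithm. Of the 236 members with a summed count of 90 to 179, 0 were called higher at day 7 than at days 2-3, against 0.181% of all eligible regions of any depth. A count of 0 in 236 is near that share, so nothing about depth is read from it.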
